A study of Mus musculus with 1279 samples.

Results

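Platelet-derived growth factor (PDGF) receptors and ligands were followed across heart fibroblasts and mural cells of the mouse. The 7 genes, taken by name out of the 46517 genes of the count table, were the receptors Pdgfra and Pdgfrb, the receptor-like gene Pdgfrl, and the ligands Pdgfa, Pdgfb, Pdgfc and Pdgfd. Each of the 1279 libraries came from 1 cell of the heart of an adult male mouse of 10 to 20 weeks on the C57Bl6/J background, made with Smart-seq2, a plate-based method that covers whole transcripts and has no molecular identifiers. C57BL6 mice carried no reporter and their cells were sorted with antibodies (581 cells). The other cells were sorted by a transgenic reporter, Tg(Pdgfrb-eGFP) in PdgfrbGFP (364 cells), dsRed driven by Cspg4 sequences in Cspg4dsRED (163 cells) and GFP driven by Acta2 sequences in Acta2GFP (171 cells). In all 4 strains, cells positive for the endothelial surface protein CD31 were kept out of the sort, and elastase was added to the dissociation of Acta2GFP hearts. Reporter and antibody sorts choose cells partly by the receptors described here, and the authors further dropped cells in which neither receptor was found as well as those resembling endothelial or immune cells, so the share of receptor-positive cells is set in part by the collection. In the deposited counts, 31 cells had no count of either receptor.

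PDGF ligands are secreted dimers that bind and pair receptor tyrosine kinases on neighbouring cells. The Pdgfra protein binds PDGF-A, PDGF-B and PDGF-C chains, and the Pdgfrb protein binds PDGF-B and PDGF-D. PDGF-C and PDGF-D are made with an extra domain that proteases must cut off before the ligand can act. In vessels, endothelial PDGF-B recruits pericytes and smooth muscle cells through Pdgfrb, whereas Pdgfra is a widely used marker of fibroblasts. Pdgfrl encodes a protein that resembles the outer part of a PDGF receptor and has no kinase domain.

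The labels assign each cell to 1 of 8 clusters, which the authors made with pagoda2 from the same counts. Clusters 1 to 5 are fibroblasts in the study and held 926 cells. Clusters 6 to 8 were taken here as mural cells, the smooth muscle cells and pericytes of vessel walls, and held 353 cells. Levels below are CPM, counts scaled to a common library total, of the counts summed over the cells of 1 strain, and the 4 strains are the replicates, because the labels name no animal. Strain, sort and plate cannot be told apart, except that C57BL6 cells came from more than 1 plate. The total count of a cell lay between 46268 and 1302397 (median 274504), and fibroblasts were read more deeply (median 300090) than mural cells (208557).

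The cell type labels were set beside marker genes. The clusters were made from these counts and the study itself named several of these markers, so the calls are no independent check. Rgs5 is in both the mural and the pericyte list. All 5 fibroblast markers were higher in clusters 1 to 5, and 4 of 5 mural, 3 of 4 smooth muscle and 4 of 4 pericyte markers were higher in clusters 6 to 8 (edgeR, adjusted p under 0.05). Valve interstitial markers (Wif1, Comp, Fmod and Cyp26a1) summed to 5250 ± 1048 CPM (SD, n = 4) in cluster 1 and to at most 369 CPM on average in clusters 2 to 5. Pericyte markers were highest in cluster 8, with a mean sum of 17298 CPM, and smooth muscle markers in clusters 6 and 7, with 11450 and 12725 CPM. The 3 cluster 6 cells of C57BL6 went against a mural label, because their fibroblast markers summed to 12498 CPM and their valve markers to 1297 CPM beside 11019 CPM of smooth muscle markers. In the 15 cluster 8 cells of Acta2GFP, smooth muscle markers summed to 4033 CPM beside 6942 CPM of pericyte markers. Endothelial markers summed to 17.7 to 209 CPM on average per cluster, and the endothelial gene Tek was higher in fibroblasts, with a log2 fold change of 4.89. Cardiac muscle markers summed to 1325 to 2016 CPM in cluster 7, 3.92 to 1537 CPM in cluster 6 and 116 to 386 CPM in cluster 8, against 7.86 to 261 CPM in fibroblast sums, and 2 of the 9 (Pln and Tnnt2) were called higher in mural cells. Immune markers summed to 537 CPM in the 9 cluster 7 cells of PdgfrbGFP and to at most 53.2 CPM in every other sum. The part of these markers in the mural levels below was not tested.

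By genomic position in GRCm38, Pdgfra (ENSMUSG00000029231, chromosome 5, 75152292 to 75198215, plus strand) and Pdgfrb (ENSMUSG00000024620, chromosome 18, 61045150 to 61085061, plus strand) lie on different chromosomes. Pdgfrl (ENSMUSG00000031595) lies on chromosome 8 from 40926212 to 40990785. The ligand genes are Pdgfa (ENSMUSG00000025856, chromosome 5, 138976014 to 138997370, minus strand), Pdgfb (ENSMUSG00000000489, chromosome 15, 79995874 to 80014977, minus strand), Pdgfc (ENSMUSG00000028019, chromosome 3, 81036416 to 81214040, plus strand) and Pdgfd (ENSMUSG00000032006, chromosome 9, 6168584 to 6378850, plus strand). Counts were taken over the exons of each gene. No stretch of 50 bases was shared between the transcripts of any 2 of the 7 genes. Genes on the opposite strand overlap Pdgfra (Gm42802 and Gm42803), Pdgfa (6330403L08Rik), Pdgfc (Gm16000) and Pdgfd (Ddi1), and the strand setting of the counting was not stated, so their reads could not be told apart from those of the members.

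The receptors were read far more often than the ligands. A count was present in 84.8% of cells for Pdgfrb, 77.3% for Pdgfra and 72.5% for Pdgfrl. Among the ligands it was present in 25.0% of cells for Pdgfd, 24.5% for Pdgfa, 3.44% for Pdgfb and 2.35% for Pdgfc. The counts of Pdgfb and Pdgfc were concentrated in few cells, and the 10 highest cells held 96.3% of all 986 Pdgfb counts and 89.5% of all 807 Pdgfc counts. They held 21.7% of the 14011 Pdgfa and 26.1% of the 17948 Pdgfd counts, and 8.73% of the Pdgfra and 7.95% of the Pdgfrb counts.

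Fibroblasts and mural cells differed in 3 of the 7 genes in the main fit, and in 1 to 3 when a strain was left out. With strain as a replicate block, Pdgfrl lost its call. Pdgfra and Pdgfrl were higher in fibroblasts and Pdgfrb was higher in mural cells (edgeR quasi-likelihood test on the strain sums, Benjamini-Hochberg adjustment over all genes, adjusted p under 0.05). Of all 15117 genes tested, 5.93% were called, 3.47% higher and 2.45% lower in fibroblasts. Of the 4 ligands, 0 were called by edgeR (the DESeq2 Wald test called Pdgfa), and Pdgfa was the only one whose strain values did not overlap between the sides. Since the clusters were built on these counts and the cells were sorted on receptor protein or reporters, these p-values describe the spread between strain sums and are not independent of how the groups were made.

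**Figure D1:**
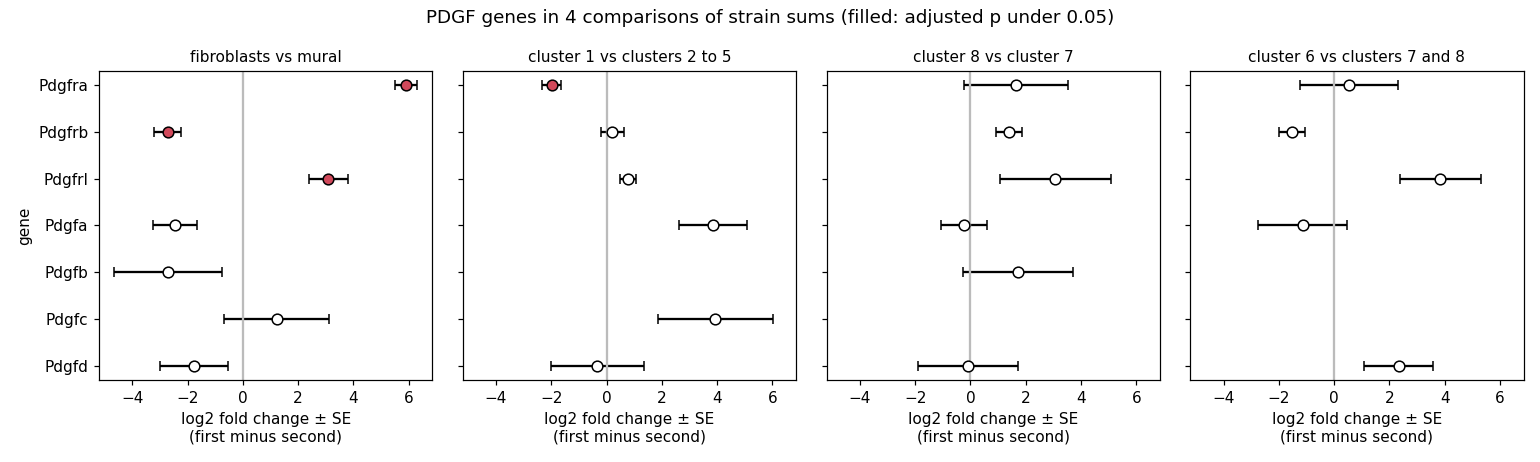
Log2 fold change of each of the 7 genes in the main comparisons (x axis, points with bars of 1 standard error from edgeR), with filled points for an adjusted p under 0.05. Pdgfra and Pdgfrl lie to the fibroblast side and Pdgfrb to the mural side, and the ligands have wide bars.

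Pdgfra, the receptor that marks fibroblasts, was measured at 491 CPM in C57BL6, 382 CPM in PdgfrbGFP, 536 CPM in Cspg4dsRED and 508 CPM in Acta2GFP fibroblasts. Mural cells of the same strains had 7.18, 4.32, 6.98 and 13.3 CPM. Every fibroblast value was above every mural value. The means were 479 ± 67.1 and 7.95 ± 3.81 CPM (SD, n = 4), with a log2 fold change of 5.91 ± 0.39 (SE) and an adjusted p of 9.89e-05 by edgeR, and the adjusted p ran from 4.70e-54 to 0.00458 over the alternatives.

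Among fibroblast clusters, Pdgfra was lowest in cluster 1, the cells with valve markers. Its level there was 195 CPM in C57BL6, 130 CPM in PdgfrbGFP, 82.7 CPM in Cspg4dsRED and 112 CPM in Acta2GFP. Clusters 2 to 5 lay between 385 and 702 CPM in every strain sum, and the order of their means (cluster 4 at 558, cluster 2 at 552, cluster 3 at 476 and cluster 5 at 444 CPM) did not exceed the spread between strains. The ranges of clusters 5 and 1, and of clusters 1 and 8, did not overlap. Clusters 8, 6 and 7 followed with means of 10.7, 10.0 and 3.62 CPM and overlapped with each other.

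The comparison of cluster 1 with clusters 2 to 5 called 1 of the 6 members tested, Pdgfra, beside 1.33% of 13201 genes, of which 0.561% were higher and 0.773% lower in cluster 1. The Pdgfra mean of cluster 1 was 130 ± 47.5 CPM against 527 ± 89.2 CPM for clusters 2 to 5 together (SD, n = 4), lower in 4 of 4 strains. The log2 fold change was −1.99 ± 0.34 (SE) with an adjusted p of 0.0169 by edgeR. The call was lost when C57BL6, PdgfrbGFP or Acta2GFP was left out, with adjusted p-values of 0.0662, 0.101 and 0.165, and the direction stayed the same. Pdgfrb had means of 287 ± 126 CPM in cluster 1 against 254 ± 73.2 CPM for the other fibroblasts, and its log2 fold change of 0.20 ± 0.41 (SE) had an adjusted p of 0.999 (edgeR).

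Most mural cells with a Pdgfra count had 1 to 5 counts. In Cspg4dsRED the counts were concentrated, with 224 of the 247 mural counts in cluster 6 and 2 of 137 mural cells above 5 counts. Only 2 of the 579 cells with 20 or more Pdgfra counts were mural. On the PdgfrbGFP plate, 63 mural cells had 1 to 5 Pdgfra counts and none had more, and on the Acta2GFP plate 39 had 1 to 5 and 6 had more. The Spearman rho of a mural cell's Pdgfra count with the Pdgfra counts in its plate row and column was 0.146, 0.188, 0.351 and 0.503 in the strain order used above. It was −0.248 to 0.330 for Pdgfra in fibroblasts, the lowest value over 26 cells and 0.189 to 0.330 on the other 4 plates, and −0.047 to 0.389 for Pdgfrb in mural cells, so the ranges overlapped. The part of plate position in the low mural Pdgfra counts, and in the shares of mural cells with both receptors at 1 count below, was not tested.

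**Figure D2:**
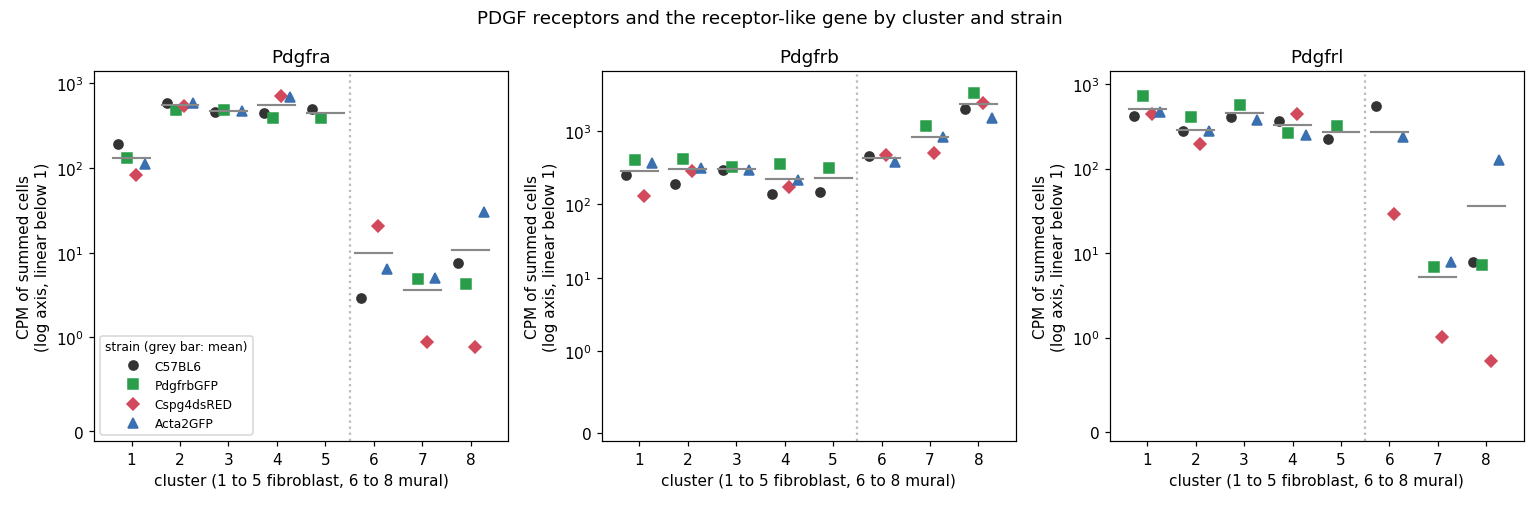
Level of Pdgfra, Pdgfrb and Pdgfrl (y axis, CPM, log axis that is linear below 1) in clusters 1 to 8 (x axis), 1 point per strain sum of 3 or more cells and a grey bar at the mean. Pdgfra is lower in cluster 1 than in clusters 2 to 5 and lower again in clusters 6 to 8, Pdgfrb is higher in cluster 8 than in 7 and in 7 than in 6, and Pdgfrl is high in clusters 1 to 5 and spread out in cluster 6.

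Pdgfrb, the receptor on which pericytes depend, was at 1753 CPM in C57BL6, 3071 CPM in PdgfrbGFP, 849 CPM in Cspg4dsRED and 993 CPM in Acta2GFP mural cells. The fibroblast levels were 179, 354, 213 and 294 CPM. The sides did not overlap, and the Pdgfrb reporter strain was highest on both. The means were 1667 ± 1017 and 260 ± 78.6 CPM (SD, n = 4), with a log2 fold change of −2.72 ± 0.48 (SE, fibroblast minus mural) and an adjusted p of 0.00926 (edgeR). Without C57BL6 the adjusted p was 0.0716.

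The 3 mural clusters were ordered by Pdgfrb without overlap of their strain values. Cluster 8, the cells with pericyte markers, had 1988 CPM in C57BL6, 3281 CPM in PdgfrbGFP, 2401 CPM in Cspg4dsRED and 1487 CPM in Acta2GFP. Cluster 7 had 1165 CPM in PdgfrbGFP, 503 CPM in Cspg4dsRED and 812 CPM in Acta2GFP. Cluster 6 had 456 CPM in its 3 C57BL6 cells, 464 CPM in its 33 Cspg4dsRED cells and 377 CPM in its 3 Acta2GFP cells. After thinning each cell to 50000 counts, 98.5% of cluster 8 cells, 84.6% of cluster 7 cells and 76.9% of cluster 6 cells still had a Pdgfrb count.

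These mural differences did not pass the correction over all genes. For cluster 8 against cluster 7, 0 of 6 members tested were called by edgeR beside 0.194% of 11867 genes, and the DESeq2 Wald test also called 0 members. At an unadjusted p under 0.05 there were 1 member (Pdgfrb) and 817 genes. Pdgfrb was higher in cluster 8 in 3 of 3 strains, with a log2 fold change of 1.41 ± 0.47 (SE) and an adjusted p of 0.384, which ran from 0.056 to 1.00 over the alternatives. For cluster 6 against clusters 7 and 8, 0 of 5 members tested were called by edgeR and by DESeq2, beside 0.033% of 12117 genes called by edgeR. At an unadjusted p under 0.05 there were 2 members (Pdgfrb and Pdgfrl) and 695 genes. The Pdgfrb mean of cluster 6 was 432 ± 47.95 CPM against 1333 ± 515 CPM for clusters 7 and 8 together (SD, n = 3), lower in 3 of 3 strains, with a log2 fold change of −1.53 ± 0.47 (SE) and an adjusted p of 0.453 (edgeR).

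Within fibroblasts, the Pdgfrb means of clusters 1 to 5 lay between 220 and 301 CPM and their strain ranges overlapped. Within C57BL6, the fibroblasts of 2 plates differed. Pdgfrb was at 209 CPM in the 292 fibroblasts of 1 plate and at 128 CPM in the 251 of the other, and after thinning it had a count in 61.6% and 26.7% of these cells. Pdgfra was at 496 and 476 CPM on the same plates, with a count in 82.2% and 70.9% of thinned cells, and Pdgfrl at 335 and 274 CPM, with 64.0% and 44.6%. The second plate was also less deeply read, with a median of 182819 counts and 3012 genes per fibroblast against 340490.5 counts and 4401 genes on the first. Leaving out the plate of 251 fibroblasts, an alternative chosen after seeing the data, kept the log2 fold change of Pdgfrb between sides at −2.67 (adjusted p = 0.00893, edgeR).

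Pdgfrl, the receptor-like gene, was at 310 CPM in C57BL6, 373 CPM in PdgfrbGFP, 310 CPM in Cspg4dsRED and 324 CPM in Acta2GFP fibroblasts, the most even of the 7 genes across strains on this side. Mural levels were 72.3, 7.19, 9.49 and 67.6 CPM. They did not overlap with the fibroblast levels, but they differed among themselves by more than the fibroblast levels did. In C57BL6, 564 of the 624 mural counts came from the 3 cells of cluster 6, whose fibroblast markers were the highest of the cluster 6 sums, and clusters 7 and 8 of that strain had 7.88 CPM. The means were 329 ± 29.6 and 39.1 ± 35.6 CPM (SD, n = 4), and the log2 fold change was 3.09 ± 0.71 (SE) with an adjusted p of 0.0299 (edgeR). The call was lost with strain as a replicate block (adjusted p = 0.0504) and when any 1 strain was left out (0.0726 to 0.0954). Without the 3 cells, an alternative chosen after seeing the data, the log2 fold change was 3.85 with an adjusted p of 0.0140 (edgeR), and the same 3 members were called.

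Cluster 1 had the highest mean Pdgfrl level, 512 ± 138 CPM (SD, n = 4), and the strain sums were 417 CPM in C57BL6, 716 CPM in PdgfrbGFP, 444 CPM in Cspg4dsRED and 469 CPM in Acta2GFP. Clusters 2 to 5 together had 305 ± 19.01 CPM. Cluster 1 was higher in 4 of 4 strains with no overlap, and the log2 fold change of 0.77 ± 0.29 (SE) had an adjusted p of 0.375 (edgeR). Some mural sums were high. The cluster 6 sums were 553 CPM for C57BL6 (3 cells), 235 CPM for Acta2GFP (3 cells) and 29.0 CPM for Cspg4dsRED (33 cells), where fibroblast markers summed to 12498, 3124 and 3328 CPM. Cluster 8 had 128 CPM in Acta2GFP against 0.750 to 7.86 CPM in the other strains, with fibroblast markers at 3338 CPM against 962 to 1391 CPM. The part of those markers in the Pdgfrl level was not tested. In cluster 6 against clusters 7 and 8, the log2 fold change of Pdgfrl was 3.84 ± 1.46 (SE) with an adjusted p of 0.636 (edgeR).

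Levels of different genes can be set side by side only after division by transcript length. On that scale (TPM, counts divided by the exon length and rescaled to a common total), mean levels in fibroblasts were 134 ± 24.5 for Pdgfra, 132 ± 39.3 for Pdgfrb and 293 ± 23.4 for Pdgfrl (SD, n = 4). In mural cells they were 2.18 ± 1.16, 797 ± 433 and 34.2 ± 31.2. The ratio of Pdgfrb to Pdgfra per length was 0.453 to 1.68 in the strain sums of clusters 2 to 5 and 2.32 to 6.01 in cluster 1. It was 41.0 to 284 in cluster 6, 296 to 970 in cluster 7 and 90.6 to 4883 in cluster 8. In clusters 2, 4 and 5 the ratio was above 1 only in PdgfrbGFP (1.55, 1.68 and 1.45), and in C57BL6 it was 0.593, 0.558 and 0.537. The length of Pdgfra, 10024 bases, joins all its annotated exons, and its per-length level depends on that choice. Cluster 1 stood between clusters 2 to 5 and the mural clusters, and the lowest mural ratio was above the highest fibroblast ratio.

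Whether the same cell held both receptors was read after thinning each cell to 50000 counts, at which 1 count equals 20 CPM, leaving out 2 cells below that depth. Both receptors had a count in 35.8% of 544 C57BL6, 56.4% of 236 PdgfrbGFP, 57.7% of 26 Cspg4dsRED and 70.0% of 120 Acta2GFP fibroblasts, with 95% Wilson intervals of 31.9 to 39.96%, 49.98 to 62.5%, 38.9 to 74.5% and 61.3 to 77.5%. In mural cells the shares were 24.3% of 37, 22.05% of 127, 3.68% of 136 and 35.3% of 51 cells. Every fibroblast share was above every mural share. Acta2GFP had the highest share on both sides and also the most genes per cell, a median of 6388 against 3358 to 4265 in the other strains, and the part of this difference in the shares and in the levels of Pdgfrl and Pdgfd that stand apart in Acta2GFP was not tested. The means were 55.0% ± 14.2 and 21.3% ± 13.1 (SD, n = 4), a difference of 33.6 percentage points (exact permutation test, two-sided, p = 0.0286, the smallest p that 4 against 4 allows). The exact p was 0.125 with strains paired as a replicate block and 0.0571 without clusters 1 and 6. On average, 91.97% of mural cells had a Pdgfrb count and 22.01% a Pdgfra count. The mural share with both receptors thus nearly repeats the mural share with Pdgfra. Cells were clustered on these counts and sorted partly on these receptors, so these p-values are no independent evidence of co-expression.

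The mural share depended on single counts. When 5 or more counts of each receptor were required (100 CPM), both were found in 22.2, 35.6, 26.9 and 46.7% of fibroblasts in the order of strains above and in 0, 0, 1.47 and 1.96% of mural cells. This left 268 of 926 fibroblasts and 3 of 351 mural cells with both receptors. The 3 mural cells were 2 of 39 in cluster 6 and 1 of 195 in cluster 8, and none of 117 in cluster 7, for which the 95% Wilson interval ends at 3.18%. The mean difference was 32.0 points (exact permutation test, two-sided, p = 0.0286). At this threshold the mural share with both receptors equalled the mural share with Pdgfra, 0.858% on average, so the same limit holds. Without thinning, 79.3% of fibroblasts and 54.8% of mural cells had a count of both on average, and the difference of 24.5 points had p = 0.229 in the same exact test.

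**Figure D3:**
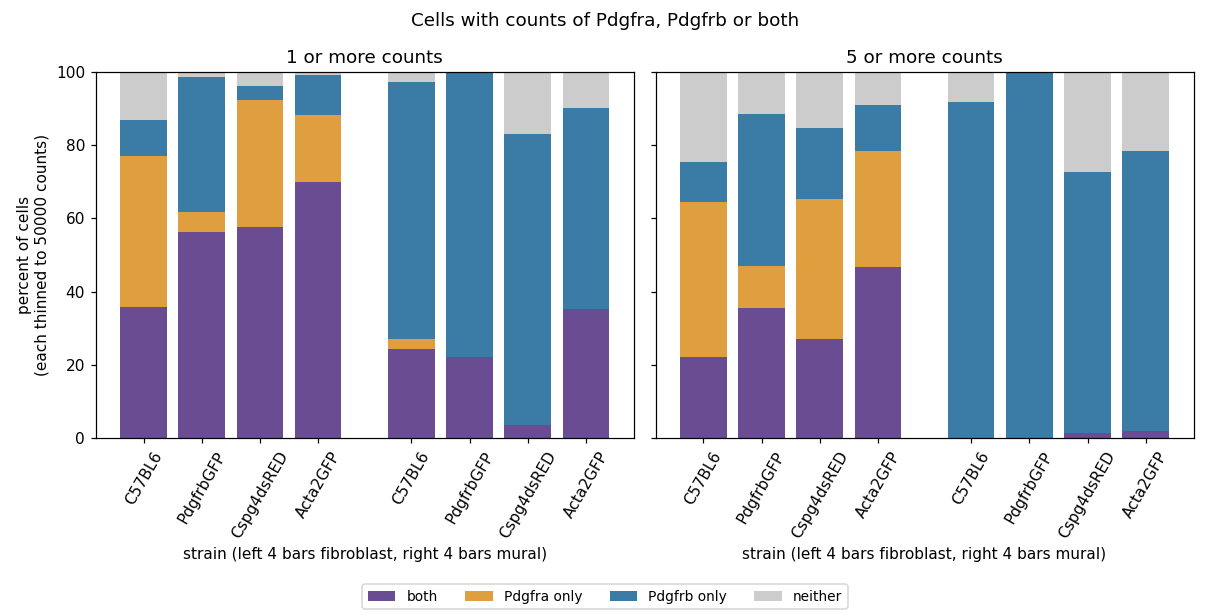
Stacked bars of the share of cells (y axis, percent, each cell thinned to 50000 counts) with counts of both Pdgfra and Pdgfrb, of 1 receptor only or of neither, for the 4 strains (x axis) of fibroblasts on the left and mural cells on the right of each panel, at 1 or more and at 5 or more counts. The part with both receptors is 0 to 1.96% in mural cells at 5 or more counts and 22.2 to 46.7% in fibroblasts, and most mural cells hold Pdgfrb only.

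Within fibroblasts the receptors were found together about as often as their separate shares multiply to. The product of the share with Pdgfra and the share with Pdgfrb was 35.1, 57.7, 56.8 and 71.4% in the strain order used above, near each share with both. The authors dropped cells in which neither receptor was found, and cells were sorted partly on the receptors. Nearness to the product can therefore not show whether the receptors are independent. The Spearman correlation of the levels of both receptors over fibroblasts of 1 strain lay between −0.069 and 0.031 (26 to 544 cells that share a strain and plates, a description). Of the 926 fibroblasts, 268 had Pdgfra without Pdgfrb, 154 had Pdgfrb without Pdgfra and 77 had neither at this depth. Among mural cells, 261 of 351 had Pdgfrb without Pdgfra and 1 had the reverse.

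The plates of C57BL6 differed in co-detection as they did in Pdgfrb. Both receptors were counted in 50.7% of the 292 fibroblasts of 1 plate and in 18.3% of the 251 of the other. Leaving out the second plate, chosen after seeing the data, gave a mean of 58.7% in fibroblasts and a difference of 37.4 points (exact permutation test, two-sided, p = 0.0286). With strains paired as a replicate block the exact p was 0.125, the smallest that 4 pairs allow. Since strains differed in co-detection and in their mix over clusters, clusters were set side by side within a strain. Within C57BL6, 5 or more counts of both were found in 2 of 19 cluster 1, 33 of 124 cluster 2, 24 of 90 cluster 3, 29 of 127 cluster 4 and 33 of 184 cluster 5 cells, and within PdgfrbGFP in 7 of 22, 19 of 49, 1 of 7, 25 of 53 and 32 of 105 cells.

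The ligand genes differ in the sequence before their start sites, and 250 bases upstream of a RefSeq start (GRCm38.p6) are given for the 3 ligand genes that had a promoter entry and for Pdgfra, the members that have such an entry, so that their base content can be set beside their levels. Capitals mark GGGCGG (the GC box), TATAAA (the TATA box), GGAATG (a motif of TEAD factors) and the CArG box of serum response factor, searched on both strands. Of 32851 promoters of the same length, GGGCGG was in 32.7%, TATAAA in 12.4%, GGAATG in 12.6% and the CArG box in 1.47%.
Pdgfra, chr5:75152001-75152250, plus strand: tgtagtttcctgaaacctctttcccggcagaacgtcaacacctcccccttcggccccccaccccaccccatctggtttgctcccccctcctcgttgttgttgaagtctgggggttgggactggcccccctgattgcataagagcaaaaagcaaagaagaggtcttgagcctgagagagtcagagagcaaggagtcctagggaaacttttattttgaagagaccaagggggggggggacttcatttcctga
Pdgfa, chr5:138994945-138995194, minus strand: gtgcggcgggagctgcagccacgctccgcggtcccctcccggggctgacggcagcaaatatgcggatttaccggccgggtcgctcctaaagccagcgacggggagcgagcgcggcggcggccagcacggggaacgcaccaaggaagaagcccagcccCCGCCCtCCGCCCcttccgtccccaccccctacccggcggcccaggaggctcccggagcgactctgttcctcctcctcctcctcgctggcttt
Pdgfc, chr3:81036166-81036415, plus strand: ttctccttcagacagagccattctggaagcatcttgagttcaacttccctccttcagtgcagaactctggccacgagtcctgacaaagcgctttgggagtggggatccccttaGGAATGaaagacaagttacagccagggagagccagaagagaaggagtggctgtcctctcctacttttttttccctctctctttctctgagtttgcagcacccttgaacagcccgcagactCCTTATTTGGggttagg
Pdgfd, chr9:6168236-6168485, plus strand: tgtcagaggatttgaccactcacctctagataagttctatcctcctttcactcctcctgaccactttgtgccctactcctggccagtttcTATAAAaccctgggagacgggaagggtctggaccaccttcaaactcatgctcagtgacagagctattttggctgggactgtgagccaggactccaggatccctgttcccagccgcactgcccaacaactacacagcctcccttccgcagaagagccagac

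The Pdgfa window was the richest in G and C, at 72.4% with 28 CpG dinucleotides, against medians of 52.4% and 6 over all promoters. It held GGGCGG on the reverse strand 86 and 93 bases before the start, and a second annotated Pdgfa start had another 60 bases before it. The windows of Pdgfra (54.4%, 4 CpG), Pdgfd (53.6%, 3 CpG) and Pdgfc (50.8%, 3 CpG) were close to the median in base content. Pdgfd had TATAAA 160 bases before the start, and Pdgfc had a CArG box 17 bases and GGAATG 137 bases before it. The Pdgfra window held none of the 4 marked motifs. A match here is a description of the letters and not evidence of a bound factor.

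Pdgfa, a ligand of Pdgfra, was at 90.6 CPM in C57BL6, 93.6 CPM in PdgfrbGFP, 103 CPM in Cspg4dsRED and 86.8 CPM in Acta2GFP mural cells. In fibroblasts it was at 17.3, 23.7, 0.569 and 26.3 CPM. The lowest mural value was above the highest fibroblast value, and the mural values were the closest together of all members relative to their mean. The means were 93.6 ± 7.01 and 16.97 ± 11.6 CPM (SD, n = 4), with a log2 fold change of −2.45 ± 0.81 (SE, fibroblast minus mural) and an adjusted p of 0.128 by edgeR. The DESeq2 Wald test gave 0.0138, and leaving out Cspg4dsRED gave 0.0363, so the call depended on the tool and on this strain, whose 26 fibroblasts gave the lowest value.

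Among fibroblasts, Pdgfa had its highest mean in cluster 1. Cluster 1 had 104 CPM in C57BL6, 148 CPM in PdgfrbGFP and 108 CPM in Acta2GFP, and 1.23 CPM in Cspg4dsRED, where it held 3 cells. Clusters 2 to 5 together had 6.50 ± 5.96 CPM (SD, n = 4). Cluster 1 was higher in 4 of 4 strains, but in Cspg4dsRED this rested on 1 count against 5 counts in clusters 2 to 5 (0.513 CPM). The log2 fold change of 3.84 ± 1.23 (SE) had an adjusted p of 0.228 (edgeR). It was called by DESeq2 (0.0116) and by edgeR without the sum of 3 cells (0.0414). Thus the level in cluster 1 was near that of cluster 7 (119, 102 and 90.3 CPM in PdgfrbGFP, Cspg4dsRED and Acta2GFP) and of cluster 8 (104, 90.8, 90.9 and 101 CPM in the order of strains above), and the strain ranges of clusters 7, 8 and 1 overlapped. After thinning, 38.6% of cluster 1, 44.4% of cluster 7 and 21.5% of cluster 8 cells had a Pdgfa count, against 3.20 to 8.04% in clusters 2 to 5. In cluster 6, 38.5% of cells had one, and the level was 112 CPM in the 33 Cspg4dsRED cells, 13.5 CPM in the 3 Acta2GFP cells and 0 in the 3 C57BL6 cells.

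Pdgfd, a ligand of Pdgfrb, had its highest level in cluster 6. The sum of its C57BL6 cells was at 609 CPM, that of Cspg4dsRED at 289 CPM and that of Acta2GFP at 247 CPM, and 30 of 39 cells had a count after thinning. Cluster 7 had 1.47 CPM in PdgfrbGFP, 115 CPM in Cspg4dsRED and 122 CPM in Acta2GFP, all below cluster 6. Cluster 6 had a mean of 382 ± 198 CPM against 79.0 ± 76.1 CPM for clusters 7 and 8 together (SD, n = 3). The log2 fold change of 2.33 ± 1.25 (SE) had an adjusted p of 0.994 (edgeR), with no overlap of the strain values in a comparison that called 0.033% of genes. The cluster 6 sums of C57BL6 and Acta2GFP were of 3 cells each, and the highest, C57BL6, was that with fibroblast markers at 12498 CPM. Without C57BL6 the log2 fold change was 1.33, and without Acta2GFP it was 3.31 (adjusted p = 0.603 and 0.897, edgeR).

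Cluster 8 was low in Pdgfd in 3 strains and high in 1. It had 0.542 CPM in C57BL6, 0.485 CPM in PdgfrbGFP and 1.65 CPM in Cspg4dsRED, and 207 CPM in Acta2GFP, where 7 of 15 cells had 20 or more counts. Smooth muscle markers were also highest there among the cluster 8 sums (4033 CPM, against 201 CPM in C57BL6), and their part in the Pdgfd level was not tested. The elastase step and the Acta2 reporter cannot be told apart from this strain. Over whole sides, Pdgfd was at 24.3, 32.0, 1.23 and 50.8 CPM in fibroblasts and 72.5, 0.583, 147 and 161 CPM in mural cells, in the order C57BL6, PdgfrbGFP, Cspg4dsRED and Acta2GFP. Fibroblasts were higher in PdgfrbGFP and mural cells in the other 3 strains. In C57BL6 this rested on the 3 cluster 6 cells with high fibroblast markers, which held 622 of the 626 mural counts, and clusters 7 and 8 of that strain had 0.525 CPM, below its fibroblasts. The log2 fold change between sides of −1.78 ± 1.22 (SE) had an adjusted p of 0.558 (edgeR), and without those 3 cells, an alternative chosen after seeing the data, it was −1.47 with an adjusted p of 0.731.

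**Figure D4:**
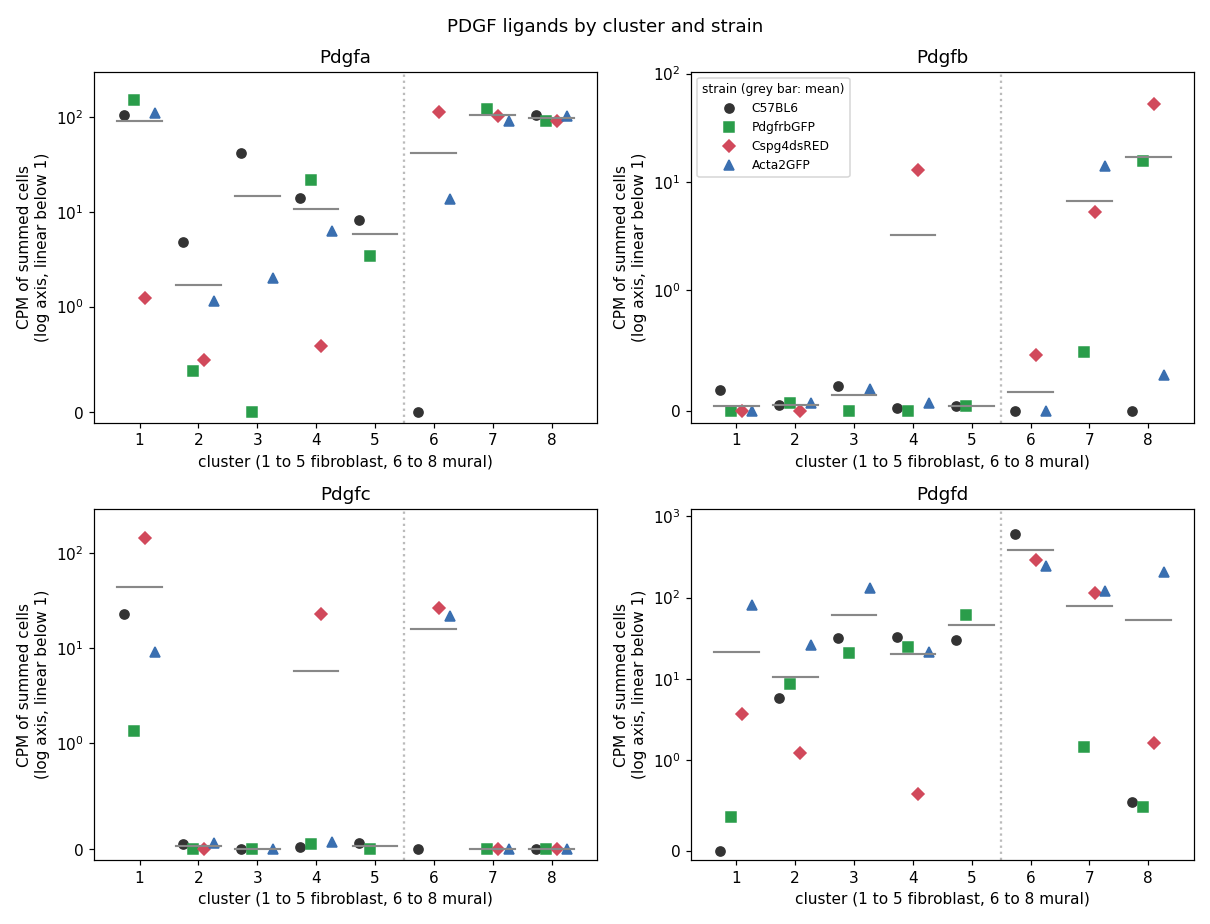
Level of Pdgfa, Pdgfb, Pdgfc and Pdgfd (y axis, CPM, log axis that is linear below 1) in clusters 1 to 8 (x axis), 1 point per strain sum of 3 or more cells and a grey bar at the mean. Pdgfa is near 100 CPM in clusters 1, 7 and 8 apart from 1 strain in cluster 1, Pdgfd is highest in cluster 6, Pdgfc has its higher points in clusters 1 and 6 with 1 in cluster 4, and Pdgfb in clusters 7 and 8 with 1 in cluster 4.

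Pdgfc, a ligand of Pdgfra, was found mainly in cluster 1 and cluster 6, and 1 cell of cluster 4 held 108 of the 111 counts of that cluster. Cluster 1 had 22.99 CPM in C57BL6, 1.36 CPM in PdgfrbGFP, 144 CPM in Cspg4dsRED and 9.15 CPM in Acta2GFP, and cluster 6 had 0, 26.6 and 21.6 CPM in C57BL6, Cspg4dsRED and Acta2GFP. The 117 counts of Cspg4dsRED in cluster 1 were all in 1 cell. No Pdgfc count was present in clusters 7 and 8, a total of 118 and 196 cells, for which 3 counts would equal 0.0933 and 0.0764 CPM. Fibroblasts had 0.856, 0.166, 21.3 and 2.06 CPM and mural cells 0, 0, 8.14 and 1.95 CPM in the order of strains above, and the log2 fold change of 1.23 ± 1.90 (SE) had an adjusted p of 0.846 (edgeR). In cluster 1 against clusters 2 to 5 it was 3.93 ± 2.07 (SE), higher in 4 of 4 strains, with an adjusted p of 0.686 (edgeR).

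Pdgfb, the ligand of both receptors that endothelial cells are known for, had a count in 44 cells, 16 fibroblasts and 28 mural cells. Mural levels were 0 CPM in C57BL6 (3 counts would equal 0.347 CPM), 14.2 CPM in PdgfrbGFP, 12.6 CPM in Cspg4dsRED and 8.34 CPM in Acta2GFP, and fibroblast levels were 0.0663, 0.0276, 5.78 and 0.062 CPM. A single cluster 8 cell held 343 of the 346 counts of that cluster in Cspg4dsRED, and another held 284 of 291 in PdgfrbGFP. The log2 fold change of −2.71 ± 1.95 (SE) had an adjusted p of 0.585 (edgeR). Of the Pdgfb-positive cells, 4 of 16 fibroblasts and 6 of 28 mural cells had counts of 3 or more of the 7 endothelial markers, as did 81 of 922 fibroblasts and 64 of 352 mural cells whether or not they had Pdgfb, and 0 had 3 platelet markers. Endothelial and platelet cells make PDGF-B, and the part of such RNA in these counts was not tested further. The Pdgfb level in these sums rested on few cells, since the 10 highest cells held 96.3% of all its counts. Whether cells without a count held a little of the RNA cannot be told here.

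Ligand and receptor counts in the same cell were read after thinning, beside the share that the separate shares multiply to. Of the known binding pairs, Pdgfd and Pdgfrb were together in 27 of 39 cluster 6 cells, 69.2% with a 95% Wilson interval of 53.6 to 81.4%, against a product of 59.2%, and in 35 of 117 cluster 7 cells, 29.9% against 31.8%. Pdgfa and Pdgfra were together in 13 of 70 cluster 1 cells (18.6% against 18.7%), 8 of 117 cluster 7 cells (6.84% against 6.08%) and 7 of 195 cluster 8 cells (3.59% against 4.75%). These shares pool the cells of all strains, and whether the pairs were together more or less often than separate detection gives was not tested. The clusters differ in their mix of strains, so the share of cells with at least 1 of the 4 ligands was read within strains. In Cspg4dsRED it was 30 of 33 cells in cluster 6, 47 of 74 in cluster 7 and 12 of 29 in cluster 8, and in Acta2GFP it was 2 of 3, 26 of 33 and 11 of 15. In PdgfrbGFP cluster 7 had 2 of 9 cells and cluster 8 had 27 of 118. Cluster 1 had 6 of 19 cells in C57BL6, 10 of 22 in PdgfrbGFP, 1 of 3 in Cspg4dsRED and 17 of 26 in Acta2GFP. Acta2GFP also had 12 of 38, 8 of 14 and 16 of 40 cells in clusters 2, 3 and 4.

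Clusters 2, 3, 4 and 5 were not told apart by these genes. In each of the 4 comparisons of 1 of these clusters with the others, 0 of 5 members tested were called by edgeR and by DESeq2, and 0 had an unadjusted p under 0.05, where edgeR called 0% of all genes. At an unadjusted p under 0.05, edgeR gave 641, 895, 670 and 630 genes for clusters 2, 3, 4 and 5, and the DESeq2 Wald test called 169, 387, 184 and 124 genes. The member nearest to the threshold was Pdgfrl in cluster 3, at 449 ± 98.7 CPM against 293 ± 27.0 CPM in the others (SD, n = 3), higher in 3 of 3 strains with a log2 fold change of 0.77 ± 0.36 (SE) and an adjusted p of 0.848 (edgeR). Pdgfd was at 45.3 ± 21.2 CPM in cluster 5 against 20.4 ± 3.51 CPM (SD, n = 2 strains), with an adjusted p of 1.00.

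Other genes of the pathway were read in 5 lists of 50 genes in all. Between fibroblasts and mural cells, 47 were tested, 3 were higher and 4 lower in fibroblasts, so 14.9% were called beside 5.93% of all genes. The lists were chosen with earlier results of these data known, so this share is not a test of the pathway. The genes higher in fibroblasts were Pcsk5, Lrp1 and Hspg2. Pcsk5, a protease of the family that cuts PDGF precursors, was at 49.7, 58.6, 27.6 and 64.2 CPM in fibroblasts and 0.463, 1.07, 8.31 and 3.66 CPM in mural cells (log2 fold change 3.90, adjusted p = 0.0287, edgeR). Lrp1, an endocytic receptor that associates with Pdgfrb, had means of 757 ± 149 and 240 ± 51.7 CPM (log2 fold change 1.64, adjusted p = 0.00487), and Hspg2, a heparan sulphate proteoglycan of basement membranes, 414 ± 35.3 and 97.6 ± 47.8 CPM (2.09, adjusted p = 0.0114).

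The lower genes were Il34, Kitl, Gab1 and Errfi1. Il34, a ligand of the related receptor Csf1r, was at 8.92, 9.28, 38.4 and 11.99 CPM in fibroblasts and 312, 157, 116 and 207 CPM in mural cells, with a log2 fold change of −3.58 (adjusted p = 0.00489, edgeR). Kitl, the ligand of Kit, had means of 12.3 ± 4.64 and 72.9 ± 47.7 CPM (−2.62, adjusted p = 0.0372), and its sides overlapped between strains. The adaptor Gab1 had 39.3 ± 13.9 and 164 ± 41.7 CPM (−2.11, adjusted p = 0.00643), and Errfi1, an inhibitor of receptor kinases, 205 ± 53.9 and 813 ± 314 CPM (−1.98, adjusted p = 0.00953). By list, the median log2 fold change was 0.56 for ligand processing (6 tested), 0.73 for ligand binding and co-receptors (6 tested), −0.20 for receptor-proximal signalling (20 tested), −0.31 for negative regulators (10 tested) and −1.07 for class III receptor kinases and their ligands (5 tested), against −0.02 for all genes.

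In cluster 1 against clusters 2 to 5, 46 of the 50 genes were tested, 1 was higher and 2 were lower, 6.52% beside 1.33% of all genes. The lists were chosen with earlier results of these data known, and the paper names Thbs1 among the genes enriched in valve interstitial cells. This share is thus not a test of the pathway. Thbs1, a matrix protein that binds growth factors, was at 1209, 622, 2704 and 1947 CPM in cluster 1 and 129, 104, 216 and 201 CPM in clusters 2 to 5 (log2 fold change 3.29, adjusted p = 0.00298, edgeR). The feedback inhibitors Errfi1 and Spry1 were lower, Errfi1 at 22.6 ± 18.6 against 228 ± 61.1 CPM (−3.26, adjusted p = 0.0388) and Spry1 at 59.1 ± 36.1 against 364 ± 69.7 CPM (−2.61, adjusted p = 0.0301). These cells were thus lower in Pdgfra and in 2 of the 10 listed negative regulators. None of the 44 listed genes tested between clusters 8 and 7, and none of the 45 tested in cluster 6, was called by edgeR.

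The genes whose pattern over the 27 strain and cluster sums was most like each member were found by the Pearson correlation of log2(CPM + 1) among 10326 genes, a description over sums that share strains and plates. For Pdgfra they were Fbln2 (0.957), Medag (0.954) and Adamtsl2 (0.951), and for Pdgfrl the matrix genes Lum (0.955) and Mfap5 (0.948) and Mgst1 (0.947). For Pdgfrb they were Vtn (0.918), Sept7 (0.901) and Higd1b (0.897). The ligands had looser matches. They were Bcar3 (0.827), Sipa1l2 (0.776) and Atp1b2 (0.771) for Pdgfa, and Col18a1 (0.819), Sh3bgr (0.776) and Gm38271 (0.758) for Pdgfd. Pdgfc was followed by Fgfr2 (0.787), Cd109 (0.786) and Slc25a34 (0.760), and Pdgfb by Pde1b (0.742), Pde4c (0.682) and F11r (0.682), both on few counts. Between members, the correlation was 0.778 for Pdgfra with Pdgfrl and −0.738 for Pdgfra with Pdgfrb.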

How the data were processed

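The data were Smart-seq2 libraries of 1279 single heart cells in a table that the authors deposited as raw read counts per gene and cell, with no normalization. Per the methods of the study, reads were trimmed, mapped to GRCm38 with TopHat2 and counted per gene with featureCounts; the annotation release and strand setting are not given in the sources used here. The authors gated single cells and removed cells with very many genes as likely doublets, so no doublet caller was run here. Spike-ins (92 of the 46609 features, 1.82% of all counts) were kept out of totals and tests. Genes were placed with GENCODE M21 (46005 of 46517 matched).

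Counts were summed per strain and group (3 or more cells), since the labels name no animal, and p-values measure the spread between strains. Sums were compared over all genes with the edgeR quasi-likelihood test (edgeR 4.0.16, R 4.3.3, TMM, filterByExpr with a minimum count of 10) and Benjamini-Hochberg adjustment at 0.05. Strain medians of total counts were 245769 to 301141. CPM used totals without spike-ins; per-length values used the summed exon length. Shares used cells thinned to 50000 counts, 95% Wilson intervals and an exact permutation test over strains; intervals and limits cover counting error only.

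Same-strain sums deviated together (r = 0.157, 0.193, 0.118 and 0.218 over 10318 genes), and the same strain means the same sort and plates. The highest r between strains was 0.193, for Acta2GFP fibroblasts and Cspg4dsRED mural cells. Sums can thus be paired by strain, but the main tests were unpaired and the blocked fit is an alternative. Under it Pdgfrl between sides lost its call, and co-detection permuted within strains had an exact p of 0.125. Alternatives were DESeq2 size factors, the DESeq2 1.42.0 Wald test, no filter, a strain block, thinned cells, 10 cells per sum, each strain left out, and, chosen after seeing the data, 1 C57BL6 plate left out or the 3 C57BL6 cells of cluster 6 left out. Named genes were the 7 members, the pathway genes with the largest fold changes among those called (up to 5 per direction between sides and 3 elsewhere), the 3 genes most like each member, and the 3 coding genes on each side of Pdgfrb. The members and lists were chosen with earlier results of these data known. Upstream sequences are from RefSeq, GRCm38.p6, which held 4 of the 7 members.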

Additional observations from a re-analysis of the deposited data

Results flagged for a closer look

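In 43 groups of 4 strain values, the highest or lowest value was set against the others, and 9 stood apart. Chance sets apart about 1 group in 20 for independent measurements, which these are not, since a fibroblast sum holds the cells of its clusters and a single count beside zeros always stands apart. Pdgfrl in cluster 8 was at 128 CPM in Acta2GFP and at 0.750 to 7.86 CPM in the other strains, and 3 of its 15 cells had 20 or more counts. Pdgfd in cluster 8 was at 207 CPM in Acta2GFP and at 0.485 to 1.65 CPM elsewhere. Pdgfd in cluster 1 was at 80.6 CPM in Acta2GFP and at 0 to 3.70 CPM elsewhere, with 4 of 26 cells at 20 or more counts. Acta2GFP cells had a median of 6388 genes against 3358 to 4265 in the other strains, whose part in these values was not tested.

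The other 6 values rested on few counts. Pdgfb was at 5.78 CPM in fibroblasts of Cspg4dsRED against 0.0276 to 0.0663 CPM, and at 12.8 CPM in its cluster 4 against 0 to 0.0653 CPM, where 58 of 61 counts were in 1 cell. Pdgfb in cluster 1 of C57BL6 was at 0.169 CPM, a single count, with 0 in the other strains. Pdgfc was at 21.3 CPM in fibroblasts of Cspg4dsRED against 0.166 to 2.06 CPM, at 144 CPM in its cluster 1 against 1.36 to 22.99 CPM, and at 22.7 CPM in its cluster 4 against 0.0221 to 0.0653 CPM, and the latter 2 values each came from 1 cell.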

How the results depend on the processing

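Of the single-gene values recomputed, 396 kept their direction and side of the threshold, 9 lost a call, 5 gained one and 23 changed sign, none of the last for a called gene. Members called between sides numbered 3 and, leaving out a strain, 1 to 3, with 1 without C57BL6 (Pdgfra). In cluster 1 the 1 call became 0 to 2 over strains left out, 2 with DESeq2 and 2 with 10 cells per sum. The co-detection difference of 33.6 points was 24.5 points (p = 0.229) without thinning, 34.8 (p = 0.0571) without clusters 1 and 6, and 26.8, 33.3, 33.4 or 41.0 (each p = 0.1, the smallest that 3 against 3 allows) leaving out a strain. With strain as replicate block, the co-detection p was 0.125 and Pdgfrl between sides had an adjusted p of 0.0504; the block changed no other member's call.

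Log2 fold changes that turned sign were small or rested on few sums. With 10 cells per sum, Pdgfa in cluster 8 against 7 was 0.034, Pdgfrl in cluster 2 was 0.12 and Pdgfra in cluster 3 was −0.14. Thinned, Pdgfra was −0.29, −0.011 and −0.0048 in clusters 3, 4 and 5, and Pdgfrb −0.048 and 0.046 in clusters 3 and 5. Without a filter, Pdgfra was −0.016 in cluster 3 and −0.0078 in cluster 5. With the replicate block, Pdgfa in cluster 3 was −0.81. Leaving out a strain, the ranges were −2.27 to 1.85 (Pdgfa), −0.13 to 1.88 (Pdgfd) and −0.14 to 0.16 (Pdgfra) in cluster 3, −0.36 to 0.12 (Pdgfrl) in cluster 2, −0.12 to 0.52 (Pdgfrl) in cluster 4, −4.47 to 0.31 (Pdgfd, 0.047 without C57BL6) in cluster 1 and −1.01 to 1.51 (Pdgfra) in cluster 6. For cluster 8 against 7 they were −0.48 to 0.034 (Pdgfa), −5.87 to 0.82 (Pdgfd), −0.36 to 2.49 (Pdgfra) and −0.16 to 3.98 (Pdgfrl). The cause was not tested.

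Genes called overall were 896 between sides (1926 with DESeq2, 409 to 605 leaving out a strain), 176 in cluster 1 (689 with DESeq2, 98 with the block, 110 with 10 cells per sum, 26 to 110 leaving out a strain), 23 between clusters 8 and 7 (45 with DESeq2 size factors, 380 with DESeq2, 201 unfiltered, 82 with the block, 0 with 10 cells per sum, 0 to 124 leaving out a strain) and 4 in cluster 6 (341 with DESeq2, 100 unfiltered, 107 with the block, 13 thinned, 0 to 63 leaving out a strain). DESeq2 size factors moved the median of all genes from 0.18 to 0.04 between clusters 8 and 7, from −0.32 to −0.17 in cluster 6 and from −0.13 to 0.04 in cluster 3.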

Other observations

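Genes next to Pdgfrb were read by strain, since PdgfrbGFP carries a transgene made from this locus. Camk2a, a neuronal kinase gene that lies upstream of Pdgfrb, was at 21.2 CPM in PdgfrbGFP fibroblasts and at 1.30, 8.91 and 1.69 CPM in those of C57BL6, Cspg4dsRED and Acta2GFP. In mural cells it was at 13.2 CPM in PdgfrbGFP and at 0, 1.33 and 0.585 CPM in the others, so PdgfrbGFP was highest on both sides, as it was for Pdgfrb. Csf1r, on the other side of Pdgfrb, did not share this order, with 0.635 CPM in PdgfrbGFP fibroblasts and 7.81, 11.8 and 2.91 CPM in the others. In mural cells Csf1r was at 9.57 CPM in PdgfrbGFP and at 1.04, 12.7 and 0.780 CPM in C57BL6, Cspg4dsRED and Acta2GFP. Slc26a2 was at 36.6 CPM in PdgfrbGFP fibroblasts, the highest of that side, and at 20.7 CPM in its mural cells, below the 43.9 CPM of Acta2GFP. Hmgxb3 was lowest in PdgfrbGFP among fibroblasts, at 3.22 CPM, but in mural cells it was at 16.1 CPM there, between 1.04 CPM in C57BL6 and 29.8 CPM in Cspg4dsRED. Slc6a7, between Camk2a and Pdgfrb, was low but also highest in PdgfrbGFP on both sides, at 0.911 CPM against 0 to 0.675 CPM in fibroblasts and 1.26 CPM against 0.049 to 0.876 CPM in mural cells, and Cdx1 had no count. Which part of the Pdgfrb reads in PdgfrbGFP comes from the transgene was not tested. In every cluster most cells had counts of 0 or 1 ligand after thinning. Counts of 2 ligands were present in 8 of 39 cluster 6, 23 of 117 cluster 7 and 7 of 70 cluster 1 cells. Counts of 3 ligands were present in 6 of 39 cluster 6 cells and 2 of 117 cluster 7 cells, and no cell had all 4.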
